A study of Mus musculus with 19 samples.

Results

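The proteins that carry cargo through the nuclear pore, and the small GTPase Ran that gives this traffic its direction, were followed across 19 mouse pancreatic duct organoid lines through 33 of their genes. These were 5 importin α adaptors, 11 import receptors of the importin β family, 7 exportins, 7 genes of the Ran cycle and 3 genes of the mRNA export receptor. They were chosen by gene symbol from the 29861 rows of the deposited table, and all 33 were present and passed the filter on low values. The choice was made with earlier results of these data known, so shares of these genes set against all genes are descriptive. Values are TPM, an abundance per transcript length scaled to the same total in each library, so levels can be compared between genes. TPM keeps no depth and the number of reads behind a value is unknown.

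Organoids are gel-embedded cultures in which epithelial cells grow as hollow spheres. Of the lines, 6 came from pancreatic adenocarcinomas of mice with the alleles Trp53LSL-R172H and Pdx1-Cre, 6 from ducts of Pdx1-Cre pancreas containing pancreatic intraepithelial neoplasia (PanIN, a precursor lesion), and 7 from ducts of normal pancreas of wild-type mice. The Pdx1 promoter drives Cre in progenitors of the developing pancreas, so recombination is not limited to duct cells. Ages were not given in the labels, and by labelled sex 11 lines were female and 8 male. All mice had the C57B6/J background, and every line grew in one medium with EGF, FGF-10, gastrin, noggin, R-spondin and the TGF-beta receptor inhibitor A83-01. The labels do not say whether lines shared a mouse, so the p-values rest on the spread from line to line, whatever its source.

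Importin α adaptors bind the classical nuclear localization signal of a cargo and are themselves carried by importin β1, while the other receptors of the importin β family bind cargo directly. Inside the nucleus Ran bound to GTP releases imported cargo and is needed for exportins to hold theirs. The exchange factor Rcc1 on chromatin and the GTPase activator Rangap1 at the cytoplasmic face of the pore keep RanGTP high in the nucleus and low outside it. Most mRNA leaves by another route, through the heterodimer of Nxf1 and Nxt1, which does not need Ran directly.

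All 12 ductal epithelial markers reached a TPM of 1, and their sum ran from 7758 to 9593 in tumor lines, from 8250.1 to 12783 in PanIN lines and from 10774 to 15822 in normal lines. Markers of other cells were low. The 9 fibroblast and stellate markers summed to at most 0.23 TPM in any line, and the 5 endothelial and 6 endocrine markers to at most 0.10 each. The 7 acinar markers summed to at most 2.44 TPM and the 8 leukocyte markers to at most 8.28. Of these markers, Col3a1, Lum, Emcn, Emr1, Cd3e, Ptf1a and Ins1 were among those at 0 in every line. The leukocyte markers Cd68 and Csf1r and the acinar marker Cela1 reached a TPM of 1. The leukocyte sum averaged 5.54 TPM in normal lines, 3.04 in PanIN lines and 2.67 in tumor lines. Trp53 stood at 69.8 ± 10.2 TPM (SD, n = 6) in tumor lines, 62.0 ± 12.5 (SD, n = 6) in PanIN lines and 67.7 ± 8.44 (SD, n = 7) in normal lines, which does not check the point mutation. The column names carry library identifiers of 3 series, treated as a possible batch. Tumor 4, PanIN 1 to 3 and normal 5 to 7 form the first. Tumor 5, 7 and 8, PanIN 4 and normal 10 and 11 form the second, and the remaining lines form the third. A set of 11 rows that the authors did not compare, among them the mitochondrial genes Cytb and mt-Nd4, took 16.3% to 25.4% of the TPM in tumor lines, 22.6% to 27.0% in PanIN lines and 23.3% to 28.6% in normal lines.

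Ran had the highest level of the 33 genes, with a mean of 417 TPM over the 19 lines, followed by the importin α gene Kpna2 (352 TPM) and by Ranbp1 (286 TPM), which assists Rangap1 in GTP hydrolysis. Among receptors Ipo7, a carrier of ribosomal proteins and histones, had the highest mean level at 184 TPM, ahead of Kpnb1 (importin β1) at 148 TPM. Ipo13, which works in both directions, was lowest at 10.5 TPM. All 33 were expressed in every line, and the ratio of the highest to the lowest line was largest for Rcc1, at 2.90. The map of all members by line shows that tumor 5, 8 and 9 and PanIN 6 were high in nearly every row, and that normal 11 was low in many.

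**Figure D1:**
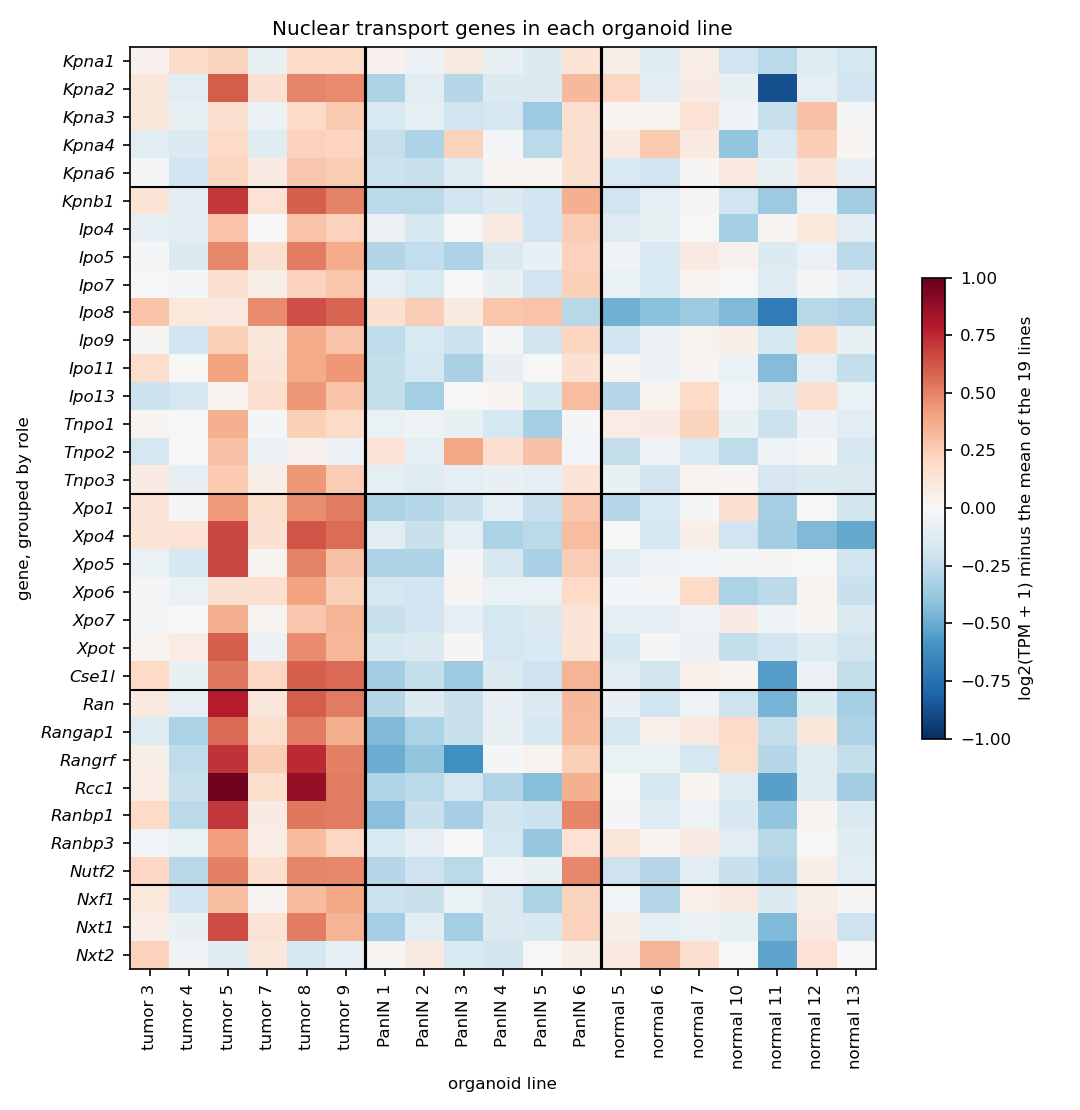
Each cell is log2(TPM + 1) of a transport gene (rows, grouped by role and separated by lines) in an organoid line (columns), minus the mean of the 19 lines, so red is above and blue below that gene's mean. Tumor 5, 8 and 9 and PanIN 6 are red across nearly all roles, tumor 4 is mostly blue, and Ipo8 is blue in every normal line and in PanIN 6.

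Between tumor and normal lines, 18 of the 33 transport genes rose and 0 fell (limma on log2(TPM + 1), two-sided, Benjamini-Hochberg adjusted over 12500 genes, called below 0.05), where 17.8% of all genes tested were called higher and 14.4% lower. The median log2 change was 0.26 for the 33 genes and 0.039 for all genes tested, and 32 of the 33 were above 0, against 55.7% of all genes. By the authors' deposited table, 20 of the 33 were higher in tumor lines at an adjusted p below 0.05. So were 16.2% of the 16644 genes with an adjusted p there, and 2435 of the 12500 genes tested here. Of the 18 calls, 11 held whichever single line was left out and 7 were lost in some of these fits. Without tumor 8, 11 genes were called, where 10.6% of genes were called higher. It was 12 without tumor 5, where 12.3% were. Without both tumor 5 and tumor 8, a pair chosen after seeing the data, 2 were called, Ipo8 and Xpo4, where 4.94% were. These were the highest tumor lines for 16 and 11 of the 33 genes, so leaving them out lowers the tumor means of those genes by design. As deposited, 55.1% of all calls were rises, against 37.4% after rescaling without the 11 rows. Then 12 of the 33 genes were called higher and 11.4% of all genes were.

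In the Ran cycle 5 of 7 genes rose, where 17.8% of all genes tested were called higher. Ran ran from 378 TPM in tumor 4 through a median of 510.1 to 701 in tumor 5 among tumor lines, against 293 to 393 with a median of 354 in normal lines. Only tumor 4 lay inside the normal range. The difference was a log2 change of 0.55 (SE 0.13, 1.46-fold, adjusted p = 0.00470, limma). Rcc1, the exchange factor that loads Ran with GTP, had a lowest value of 39.5, a median of 59.6 and a highest value of 91.3 TPM in tumor lines, against 31.4, 42.2 and 46.9 TPM in normal lines. Relative to their mean its tumor values spread more widely than those of the other members, and tumor 4 again lay among the normal lines. Rcc1 rose by a log2 change of 0.58 (SE 0.17, adjusted p = 0.0149, limma).

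Nutf2, the carrier that returns RanGDP to the nucleus, ran from 53.7 to 93.1 TPM with a median of 83.7 in tumor lines, against 52.5 to 68.4 with a median of 56.6 in normal lines. It rose 1.35-fold (log2 change 0.43, SE 0.13, adjusted p = 0.0174, limma), and the call was lost without tumor 8 (adjusted p = 0.0501). Ranbp1 averaged 350.1 ± 82.5 TPM in tumor lines and 256 ± 23.5 in normal lines (SD, n = 6 and 7; 1.34-fold, adjusted p = 0.0350, limma). Rangrf, a Ran-binding protein that loosens its nucleotide, averaged 52.1 ± 13.8 TPM in tumor lines and 36.9 ± 4.09 in normal lines (1.37-fold, adjusted p = 0.0361, limma). Each of these last calls was lost on leaving out any 1 of 7 of the 19 lines, the highest adjusted p being 0.0968 without tumor 5 for Ranbp1 and 0.102 without tumor 8 for Rangrf. The other 2 genes of the cycle did not pass the test. Rangap1 stood at 108 ± 25.5 TPM in tumor lines and 90.3 ± 12.2 in normal lines (adjusted p = 0.219, limma). Ranbp3, a cofactor of Xpo1, stood at 54.3 ± 7.37 and 47.3 ± 4.44 TPM in tumor and normal lines (adjusted p = 0.119).

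Of the exportins, 5 of 7 rose, against 17.8% of all genes tested. Xpo4, which exports the translation factor eIF5A, lay between 17.3 and 25.5 TPM with a median of 20.5 in tumor lines, against 10.7 to 16.4 with a median of 13.5 in normal lines. Every tumor line was thus above every normal line, as for 2.90% of all genes tested, and Xpo4 was the exportin with the largest change (log2 change 0.61, SE 0.13, 1.53-fold, adjusted p = 0.00202, limma). Cse1l, the exportin that returns importin α to the cytoplasm, ran from 80.6 to 129 TPM with a median of 111 in tumor lines, against 57.6 to 88.1 with a median of 79.2 in normal lines. Tumor 4 alone overlapped the normal lines, and the log2 change was 0.49 (SE 0.13, adjusted p = 0.00864, limma).

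Xpo1, the receptor of leucine-rich export signals, ran from 73.0 to 106 TPM with a median of 91.7 in tumor lines, against 58.7 to 83.1 with a median of 66.5 in normal lines (log2 change 0.40, SE 0.11, 1.32-fold, adjusted p = 0.0106, limma). Normal 10 gave the highest normal value of Xpo1 and lay above tumor 3 and 4. Xpot, the exportin of tRNA, ran from 36.6 to 58.2 TPM with a median of 44.3 in tumor lines, against 32.3 to 37.6 with a median of 34.1 in normal lines (log2 change 0.38, SE 0.094, 1.30-fold, adjusted p = 0.00620, limma). Only tumor 7 fell within the normal range. Xpo7 averaged 54.0 ± 6.69 TPM in tumor lines and 46.6 ± 2.37 in normal lines (1.15-fold, adjusted p = 0.0439, limma), a call lost on leaving out any 1 of 12 of the 19 lines, with a highest adjusted p of 0.114 without tumor 5. Xpo5, which exports microRNA precursors, stood at 41.8 ± 10.0 TPM in tumor lines and 33.9 ± 1.77 in normal lines (adjusted p = 0.0993, limma). Xpo6, an exportin of actin, stood at 23.3 ± 2.90 and 19.7 ± 2.65 TPM in tumor and normal lines (adjusted p = 0.0586, limma). Neither passed the test, although the authors' deposited table gave Xpo6 an adjusted p below 0.05 (0.0263).

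Among import receptors 5 of 11 rose, against 17.8% of all genes tested, led by Ipo8, whose known cargoes include Argonaute proteins. Ipo8 lay between 40.6 and 59.8 TPM with a median of 49.7 in tumor lines, against 23.0 to 31.1 with a median of 28.3 in normal lines. Tumor 5, the highest tumor line for many members, had the lowest tumor value of Ipo8. Every tumor line was above every normal line, as for 2 of the 33 genes and for 2.90% of all genes tested. The log2 change of 0.79 (SE 0.11, 1.73-fold, adjusted p = 0.000135, limma) was the largest of the 33 genes. Kpnb1, the partner of importin α, ran from 133 to 237 TPM with a median of 182 in tumor lines, against 112 to 146 with a median of 126 in normal lines. Tumor 4 was the sole tumor line below the highest normal line, and the log2 change was 0.50 (SE 0.13, 1.42-fold, adjusted p = 0.00650, limma).

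Ipo11, a carrier of ubiquitin-conjugating enzymes, ran from 30.4 to 41.7 TPM with a median of 37.3 in tumor lines, against 22.3 to 31.1 with a median of 29.2 in normal lines (log2 change 0.37, SE 0.095, 1.29-fold, adjusted p = 0.00727, limma). Tnpo3, which imports serine- and arginine-rich splicing factors, ran from 62.8 to 90.3 TPM with a median of 74.9 in tumor lines, against 58.1 to 68.0 with a median of 60.4 in normal lines (log2 change 0.26, SE 0.074, adjusted p = 0.0125, limma). For both genes tumor 4 was the lowest tumor line and lay within the normal range. Ipo5 averaged 119 ± 21.9 TPM in tumor lines and 95.4 ± 8.01 in normal lines (1.23-fold, adjusted p = 0.0391, limma), and its call was lost on leaving out any 1 of 7 of the 19 lines, with a highest adjusted p of 0.110 without tumor 8. The other 6 receptors, Ipo4, Ipo7, Ipo9, Ipo13, Tnpo1 and Tnpo2, were not called, with log2 changes from 0.11 for Ipo13 to 0.18 for Ipo7. The authors' deposited table gave Ipo7 an adjusted p below 0.05 (0.0414).

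Of the 5 importin α genes 2 were called, both higher in tumor lines, where 17.8% of all genes were called higher. Kpna2, known to be abundant in dividing cells, averaged 425 ± 78.6 TPM in tumor lines and 316 ± 65.6 in normal lines (SD, n = 6 and 7; 1.35-fold, adjusted p = 0.0335, limma). Normal 11 had a Kpna2 level of 186 TPM, the lowest of all lines, and the call was lost without it and without any 1 of 4 other lines, with a highest adjusted p of 0.0864 without tumor 5. Kpna1 ran from 41.5 to 51.3 TPM with a median of 50.1 in tumor lines, against 36.2 to 46.1 with a median of 40.0 in normal lines (log2 change 0.23, SE 0.070, 1.18-fold, adjusted p = 0.0171, limma). Kpna3, Kpna4 and Kpna6 had log2 changes of 0.066, 0.019 and 0.14 and were not called. Kpna2 made up 70.8% ± 2.34 of the summed importin α TPM in tumor lines, 67.3% ± 2.70 in PanIN lines and 65.8% ± 4.49 in normal lines (SD, n = 6, 6 and 7), and these shares overlapped between all groups.

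Of the mRNA export genes, Nxt1, the small partner of Nxf1, rose 1.30-fold, at 53.6 ± 10.6 TPM in tumor lines and 40.5 ± 4.82 in normal lines (adjusted p = 0.0196, limma). That call was lost without tumor 5 (adjusted p = 0.0577) and without tumor 8. Nxf1 itself stood at 72.7 ± 10.8 TPM in tumor lines and 63.2 ± 5.72 in normal lines and was not called (adjusted p = 0.141). Nxt2, a paralog of Nxt1, was the one member below 0, with 20.5 ± 2.37 TPM in tumor lines and 21.3 ± 3.78 in normal lines (log2 change -0.041, SE 0.11, adjusted p = 0.795).

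**Figure D2:**
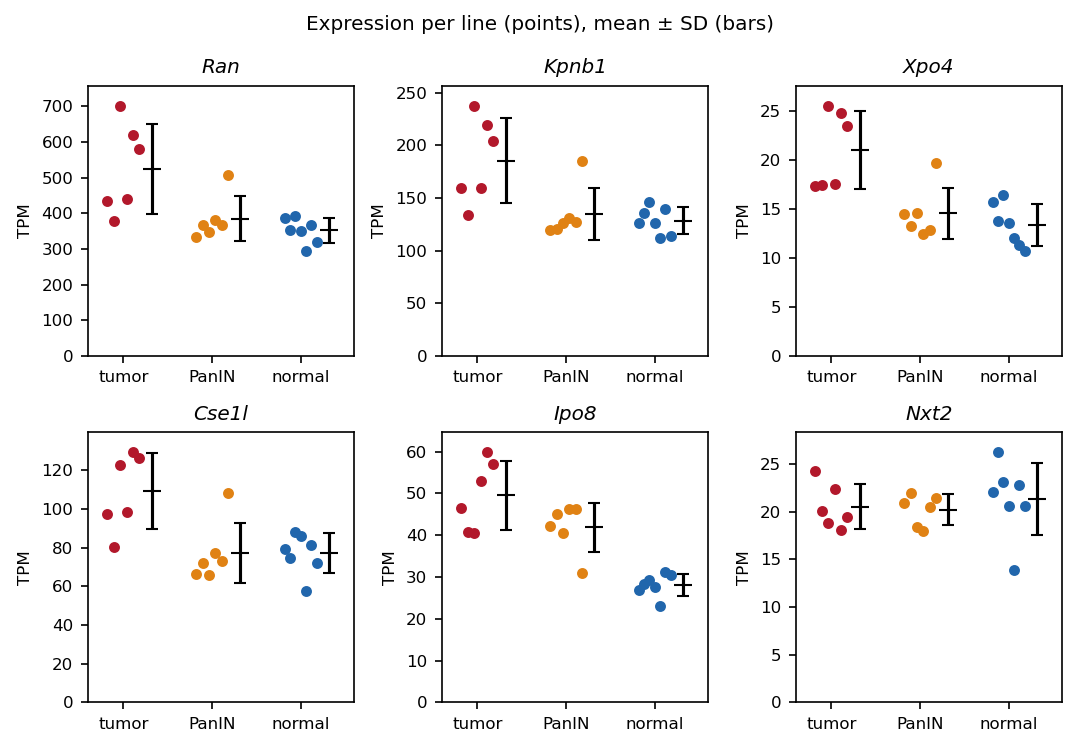
TPM of 6 transport genes in each line (points) by group, with the mean ± SD beside them (bars; n = 6 tumor, 6 PanIN and 7 normal lines). For Ran, Kpnb1 and Cse1l tumor 4 alone among the tumor lines overlaps the normal lines and PanIN 6 is above the other PanIN lines, Ipo8 is above the normal lines in all tumor lines and in 5 of 6 PanIN lines, and Nxt2 overlaps in all groups.

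Between tumor and PanIN lines 32 of the 33 genes had a log2 change above 0, against 60.7% of all genes, but 0 passed the test in either direction (limma, adjusted over 12500 genes), where 0.392% of all genes were called higher and 1.21% lower. At an unadjusted p below 0.05, 25 of the 33 were higher, against 20.2% of all genes, and the median log2 change was 0.28 against 0.055 for all genes. By the authors' deposited table, 12 were higher at an adjusted p below 0.05. So were 5.10% of the 12560 genes with an adjusted p there, and 629 of the 12500 genes tested here. The lowest adjusted p of this comparison, 0.0550, belonged to Xpo4, at 21.0 ± 3.96 TPM in tumor lines and 14.5 ± 2.64 in PanIN lines (SD, n = 6 each; log2 change 0.50, SE 0.13, limma). Xpo1 stood at 91.0 ± 13.7 TPM in tumor lines and 67.4 ± 11.3 in PanIN lines (log2 change 0.43, SE 0.11, adjusted p = 0.0554, limma). Ran stood at 525 ± 126 and 384 ± 63.1 TPM in tumor and PanIN lines (log2 change 0.43, adjusted p = 0.0681, limma). Rcc1 stood at 64.0 ± 20.8 TPM in tumor lines and 41.2 ± 9.14 in PanIN lines (log2 change 0.58, adjusted p = 0.0664). Tnpo2, a transportin, was the one gene on the other side, with a log2 change of -0.14 (adjusted p = 0.293).

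Single lines decided this count. Without PanIN 6, 24 of the 33 genes were called higher and 15.9% of all genes were. Without tumor 4 it was 22 and 13.3%. Without normal 11, which enters the fit only through the shared spread, it was 7 and 4.07%. Leaving out tumor 7 gave 5 calls, where 1.12% of all genes were called higher, and leaving out tumor 3 gave 3, where 0.928% were, while each of the other 14 fits gave 0.

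**Figure D3:**
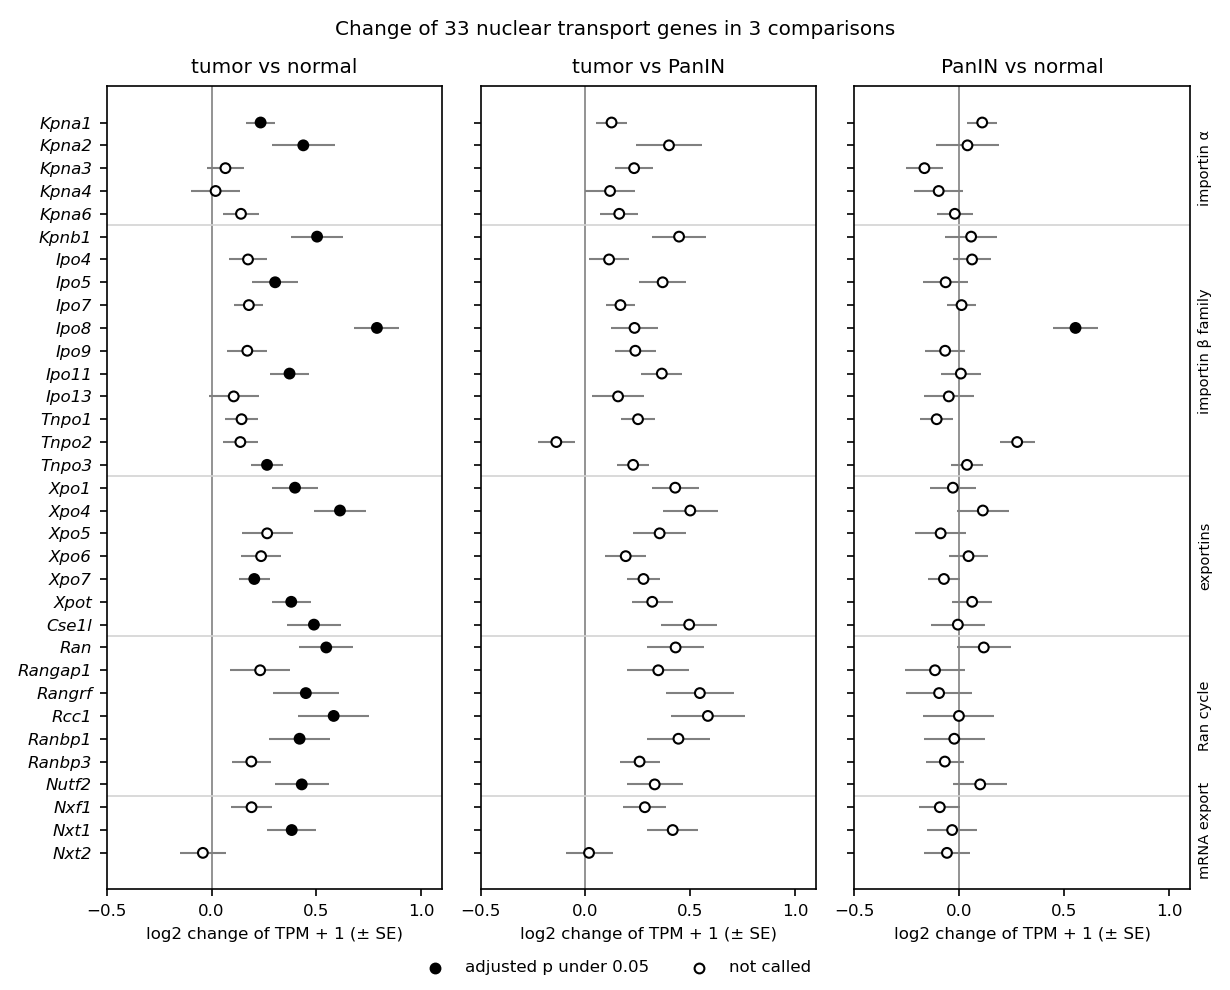
The log2 change of TPM + 1 (x axis, ± SE) of each of the 33 genes, grouped by role, between tumor and normal lines, tumor and PanIN lines, and PanIN and normal lines. Filled points passed an adjusted p of 0.05: 18 genes in the first comparison, 0 in the second and Ipo8 alone in the third.

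Between PanIN and normal lines 1 of the 33 genes was called, Ipo8, which rose in PanIN lines, where 3.10% of all genes were called higher and 3.68% lower. Ipo8 ran from 31.0 to 46.4 TPM with a median of 43.7 in PanIN lines, against 23.0 to 31.1 with a median of 28.3 in normal lines. PanIN 6 had the lowest of the PanIN values and was the one line within the normal range, while PanIN 3, the next lowest, had 40.45 TPM. The log2 change was 0.55 (SE 0.11, 1.47-fold, adjusted p = 0.00327, limma), and the call was kept whichever of the 19 lines was left out, with a highest adjusted p of 0.0120. Tnpo2 stood at 34.8 ± 4.56 TPM in PanIN lines and 28.5 ± 2.01 in normal lines (SD, n = 6 and 7, log2 change 0.28, adjusted p = 0.0536, limma) and was not called. The authors' deposited table gave both Ipo8 and Tnpo2 an adjusted p below 0.05 (3.12e-06 and 0.00964). In the higher direction it did so for 5.53% of the 15617 genes with an adjusted p there, and for 756 of the 12500 genes tested here. Of the 33 genes, 14 were above 0, against 42.6% of all genes, and 19 below (7 were above 0 without PanIN 6), with a median log2 change of -0.021 against -0.029 for all genes tested. Between tumor and PanIN lines Ipo8 differed by a log2 change of 0.23 (adjusted p = 0.164, limma), which was not called.

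The lines of one group differed from each other in a way that most members shared. Tumor 4 was the lowest tumor line for 24 of the 33 genes, against 28.9% of all genes tested. PanIN 6 was the highest PanIN line for 29 of the 33, against 37.9% of all genes, and normal 11 was the lowest normal line for 17, against 28.4%. The highest tumor line was tumor 5 for 16 genes, tumor 8 for 11 and tumor 9 for 5, against 19.8%, 20.5% and 15.2% of all genes.

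The same lines were at the ends of a list of 20 proliferation markers. Their summed TPM was 1497 in tumor 4 and 2663 to 2906 in tumor 5, 8 and 9, 2304 in PanIN 6 against at most 1505 in the other PanIN lines, and 860.2 in normal 11 against 1328 to 1883 in the other normal lines. The summed TPM of the 33 transport genes was 2500 in tumor 4, between 3598 and 3930.0 in tumor 5, 8 and 9, 3275 in PanIN 6 and 2091 in normal 11. Between tumor and normal lines 16 of the 20 markers were called higher and 0 lower, where 17.8% and 14.4% of all genes were. Their median log2 change was 0.59, against 0.039 for all genes. Between tumor and PanIN lines 0 were called, although 20 of 20 were higher at an unadjusted p below 0.05 and 11 were in the authors' deposited table at an adjusted p below 0.05. The part of proliferation, and that of the 11 rows with their 16.3% and 18.2% of TPM in tumor 5 and tumor 8, in the transport gene differences was not tested. In bulk RNA, more cells of a kind and more RNA per cell cannot be told apart.

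**Figure D4:**
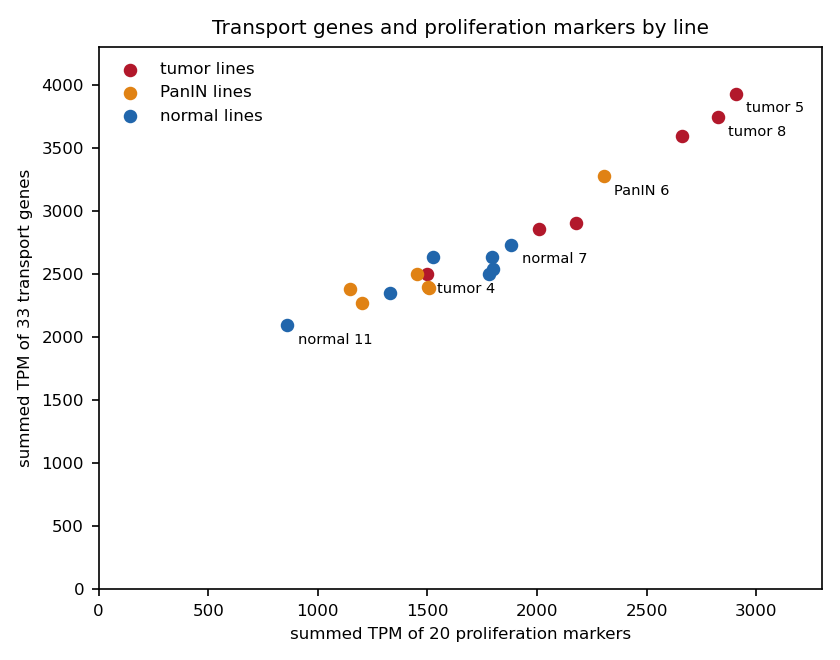
Summed TPM of the 33 transport genes (y axis) against the summed TPM of 20 proliferation markers (x axis) in each line, with 6 lines named. Both sums are lowest in normal 11 and highest in tumor 5, tumor 4 lies among the normal and PanIN lines, and PanIN 6 lies between tumor 7 and tumor 9.

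Within the identifier series the tumor against normal difference was not uniform. In the first series, where tumor 4 stood against 3 normal lines, 10 of the 33 genes were above 0 with a median of -0.081, against 38.8% of all genes, and Ipo8 was still higher by 0.52 on the log2 scale. In the second series, with 3 tumor and 2 normal lines, all 33 were above 0 with a median of 0.44, against 58.3% of all genes. In the third series, with 2 lines each, 30 were above 0 with a median of 0.26, against 57.2% of all genes. The medians of all genes were -0.055, 0.087 and 0.059 in the first, the second and the third series. Between tumor and PanIN lines the medians of the 33 genes were 0.059, 0.40 and 0.17 in the first, the second and the third series, against 0.024, 0.056 and 0.059 for all genes. The rise of Ipo8 in PanIN lines had the same direction in each series, at 0.58, 0.85 and 0.29. With the series as a covariate 14 of the 33 genes were called higher between tumor and normal lines, where 15.8% of all genes were. With labelled sex as a covariate instead it was 13, where 14.7% of all genes were.

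**Figure D5:**
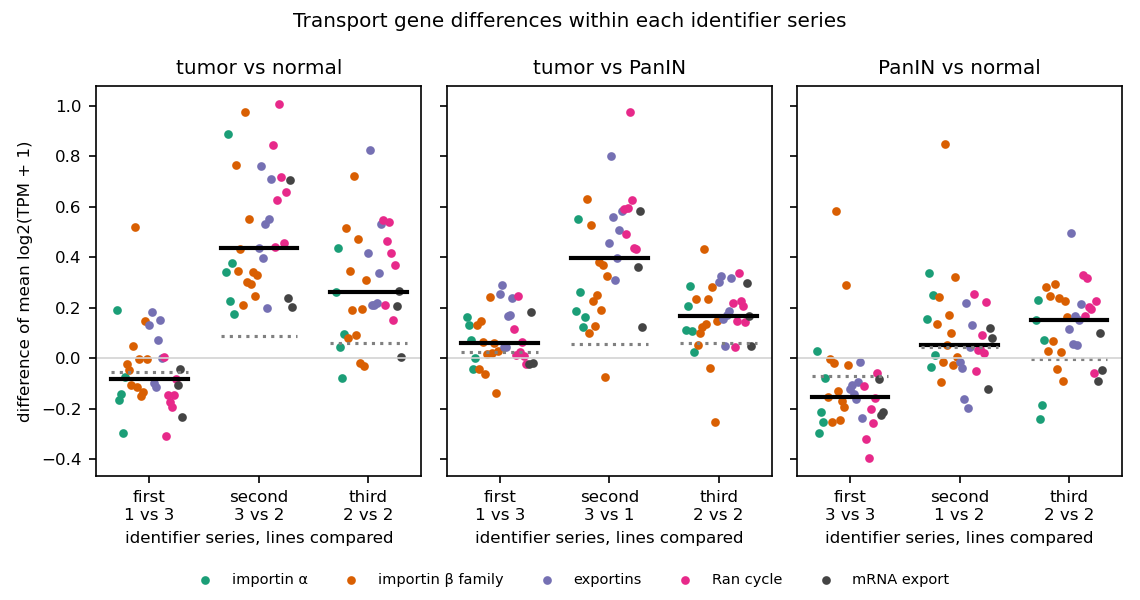
Difference of mean log2(TPM + 1) for each of the 33 genes (points, colored by role) within each identifier series, with the number of lines on each side under the axis, the median of the 33 genes as a black bar and that of all genes tested as a dotted grey bar. The tumor against normal median is -0.081, 0.44 and 0.26 in the first, the second and the third series.

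Other genes of the nuclear transport system were read from a pair of lists. Of 18 tested adaptors and Ran-linked partners, 6 rose between tumor and normal lines and 0 fell, with a median log2 change of 0.18, where 17.8% of all genes were called higher and 14.4% lower. The smallest p belonged to Heatr3, a factor of ribosomal protein import, at 43.9 ± 8.92 TPM in tumor lines and 31.4 ± 1.65 in normal lines (adjusted p = 0.00876, limma). The cap-binding gene Ncbp1 stood at 62.5 ± 13.4 TPM in tumor lines and 44.9 ± 2.89 in normal lines (adjusted p = 0.00882, limma). The histone chaperone gene Set stood at 488 ± 113 TPM in tumor lines and 339 ± 32.3 in normal lines (adjusted p = 0.0123, limma). Of 17 tested genes of the TREX and TREX-2 complexes and of mRNP remodelling, which hand mRNA to Nxf1, 4 rose and 1 fell, with a median of 0.098. That is 23.5% called higher, near the 17.8% of all genes. The helicase gene Ddx39 rose 1.76-fold (166 ± 53.7 TPM in tumor lines, 90.6 ± 13.9 in normal lines, adjusted p = 0.00269) and Thoc3 1.31-fold (adjusted p = 0.00858). Zc3h11a fell, and was 1.24-fold lower (55.2 ± 4.71 TPM in tumor lines, 69.0 ± 6.31 in normal lines, adjusted p = 0.00467). In each of the other comparisons 0 genes of either list were called by limma. Between tumor and PanIN lines 9 and 10 genes of the 2 lists were higher at an unadjusted p below 0.05, where 20.2% of all genes were, and 3 of each list were in the authors' deposited table at an adjusted p below 0.05. Between PanIN and normal lines 0 genes of either list were higher and 0 and 3 were lower at an unadjusted p below 0.05, where 7.99% of all genes were higher and 11.0% lower. The authors' deposited table called 0 of them.

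Since 18 of the 33 genes rose between tumor and normal lines, promoter windows were read from RefSeq on build GRCm38.p6, another build than the mm9 of the deposited values. Windows of 250 bases before to 50 after the start were matched for 26 of the 33 genes and for 8228 of the genes tested, with a median GC content of 61.2% and 61.3%. A gene was counted when any of its listed windows held the letters on either strand. The E-box CACGTG, bound by Myc and other factors, was in 5 of the 26 windows against 12.3% of all genes, the E2F site GCGGGAA in 4 against 10.3%, and the NRF1 core GCATGCG in 4 against 7.47%. The CCAAT box was in 14 against 43.7%, the CHR element TTTGAA, known from cell cycle promoters, in 8 against 14.0%, and the GC box GGGCGG in 21 against 71.1%. Of the 14 genes with a window that rose in tumor against normal lines, 2 held the E-box, 3 the E2F site and 3 the NRF1 core. The CCAAT box was in 8 of these 14, the CHR element in 3 and the GC box in 11. None of the 6 strings contains another, and a match describes the letters of a window only. The windows of Ran and Kpna2, the genes with the highest levels, and of Ipo8, the gene with the largest change, are shown with every match to the 6 motifs in capitals and the rest in lower case.
Ran (chr5:129019906-129020205, plus strand): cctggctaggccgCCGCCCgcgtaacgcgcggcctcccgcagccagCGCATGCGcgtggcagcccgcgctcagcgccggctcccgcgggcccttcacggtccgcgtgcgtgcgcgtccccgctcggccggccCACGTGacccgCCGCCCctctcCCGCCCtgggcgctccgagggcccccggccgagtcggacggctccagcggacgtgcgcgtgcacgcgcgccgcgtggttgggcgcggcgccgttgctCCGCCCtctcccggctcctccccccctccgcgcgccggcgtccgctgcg
Kpna2 (chr11:106999476-106999775, minus strand): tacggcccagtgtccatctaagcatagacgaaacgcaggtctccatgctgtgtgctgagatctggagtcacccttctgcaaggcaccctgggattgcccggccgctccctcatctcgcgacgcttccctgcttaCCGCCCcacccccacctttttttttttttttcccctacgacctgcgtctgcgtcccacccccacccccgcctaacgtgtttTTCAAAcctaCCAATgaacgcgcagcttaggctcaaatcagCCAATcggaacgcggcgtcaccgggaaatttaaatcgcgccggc
Ipo8 (chr6:148831418-148831717, minus strand): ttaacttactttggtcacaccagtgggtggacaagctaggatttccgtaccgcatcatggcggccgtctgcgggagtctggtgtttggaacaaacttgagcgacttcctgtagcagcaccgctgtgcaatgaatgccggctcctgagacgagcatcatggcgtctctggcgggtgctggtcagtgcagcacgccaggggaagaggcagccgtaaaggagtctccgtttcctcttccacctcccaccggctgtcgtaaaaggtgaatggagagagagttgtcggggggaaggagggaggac
The Ran window held an E-box, GC boxes and overlapping NRF1 cores that read as one palindrome, and the Kpna2 window held a pair of CCAAT boxes, a CHR element on the other strand and a GC box. The Ipo8 window held none of the 6 letter strings. A processed copy of a transcript can share reads with its parent, so the values of genes with such copies, Ran, Kpna2 and Nutf2 among them, are uncertain to that extent.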

How the data were processed

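RNA-seq of 19 organoid lines was analysed from a single table with 29861 rows. Build mm9 and the tools Bowtie 1.1.0, RSEM 1.2.11, DESeq, DESeq2 1.4.1 and FastQC are named in, and credited to, the submitters' processing notes. For the annotation no source used here gives a name. The authors deposited TPM per line, and their own comparisons per gene: a mean signal, a log2 fold change, its standard error and test statistic (a score each), and a p-value with its adjusted p-value. Per the labels' protocols, RNA came from several wells per line and libraries marked strand after removal of ribosomal RNA. Columns of other samples numbered 0.

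TPM was tested as log2(TPM + 1) with limma 3.58.1 (R 4.3.3, with jsonlite 2.0.0): 1 mean per group over 19 lines, eBayes with trend, two-sided, adjusted within each contrast by Benjamini-Hochberg over the 12500 genes with a TPM of at least 1 in at least 6 lines. Folds are on the log2(TPM + 1) scale. The test was tried on simulated data. Alternatives changed the pseudocount, filter, scaling, samples and covariates, the last being identifier series, labelled sex or line number. The 33 genes and the lists were chosen with earlier results of these data known. Members called in a comparison were described in full up to the 12 with the smallest p, the others more briefly. Listed symbols that match no row (Rgpd1, Hikeshi, Alyref, Ddx39b, Chtop) were not used here. An allele shared by the PanIN and tumor mice is not reported here. Figures were drawn with matplotlib 3.10.9.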

Additional observations from a re-analysis of the deposited data

Results flagged for a closer look

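In each of 12 transport genes PanIN 6 stood above the other 5 PanIN lines by a gap that took an unusually large share of the group's range. The gap as a share of the range was 0.837 for Kpnb1, 0.827 for Tnpo3 and 0.734 for Kpna2 among the import genes. Among the exportins it was 0.731 for Cse1l, 0.699 for Xpo4, 0.679 for Xpo1 and 0.641 for Xpo7. In the Ran cycle it was 0.8 for Ranbp1, 0.74 for Nutf2, 0.723 for Rcc1 and 0.717 for Ran, and for the mRNA export gene Nxt1 it was 0.638. Of 99 groups looked at, 12 passed their limit, where chance gives about 1 in 20, and all 12 had the same line at the same end, so they are not separate observations. Kpna2, for example, had 429 TPM in PanIN 6 and 317 TPM in the next PanIN line.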

How the results depend on the processing

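Between tumor and normal lines 18 transport genes were called higher. The count was 12 to 18 under another pseudocount, filter, scaling, choice of groups or covariate, where 10.4% to 20.5% of all genes were called higher. It was 11 to 23 when 1 line was left out, where 10.6% to 22.7% of all genes were called higher. The lowest count came without tumor 8 and the highest without tumor 4. The count was 2, where 4.94% of all genes were called higher, without tumor 5 and tumor 8, a setting chosen after seeing the data. With a replicate block on the line number it was 0, and 36 of 12500 genes were called higher. Tumor and normal lines share only the numbers 5 and 7, so this fit rests on few lines and its 0 decides little. Same-numbered lines did not deviate together (r over 0.1 in 1 of 7 pairs), so the numbers were not taken to pair lines. Under the block the median log2 change of the 33 genes was 0.30, that of Kpna1 was 0.083 and that of Kpna2 0.30. Between tumor and PanIN lines the count was 0, 1 after quantile normalization, 0 with the replicate block, and 0 to 24 when 1 line was left out. The shares of all genes called higher were 0.392%, 0.584%, 0.008%, and 0.032% to 15.9%, in that order. Between PanIN and normal lines the count was 1, 2 after median-of-ratios scaling, and 2 without tumor 5 and tumor 8. It was 0 with the replicate block, and 1 to 2 when 1 line was left out. The shares of all genes called higher were 3.1%, 4.06%, 3.29%, 0.592%, and 1.89% to 3.33%, in that order. The cause of these moves was not tested. Of the 18 genes, 11 were called whichever line was left out. After rescaling without the 11 rows the adjusted p was 0.0925 for Kpna1, 0.0546 for Kpna2, 0.0729 for Ipo5, 0.165 for Xpo7, 0.0551 for Rangrf and 0.0605 for Ranbp1 (limma). The 18 genes called between tumor and normal lines had a log2 change above 0 under every setting. So did Xpo1 and Xpo4 between tumor and PanIN lines, and Ipo8 between PanIN and normal lines. These genes were picked from the same lines, so a kept sign is not separate support. Over all 33 genes, the number above 0 was 30 to 33 between tumor and normal lines and 29 to 32 between tumor and PanIN lines. Between PanIN and normal lines it was 7 without PanIN 6 and 27 with the replicate block, where the median was 0.11. TPM gives no depth, so counting error cannot be stated.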
